A study of Mus musculus with 6 samples.

Results

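The respiratory chain and ATP synthase genes were compared between fetal livers of Tmod3 knockout and wild type mouse embryos. The set holds the nuclear genes named as subunits of complexes I to V and the assembly factors of complex I that share the Ndufaf name. Genes were taken by symbol, without use of their measured values, and where several probe sets measured a gene, the brightest on average stood for it. The rule gave 89 of the 19938 genes tested, namely 34 of complex I, 4 of complex II, 8 of complex III, 19 of complex IV, 17 of complex V (ATP synthase) and 7 assembly factors of complex I. Ndufa4 and its paralogue Ndufa4l2 were counted with complex IV, where the Ndufa4 protein is now placed. A further 7 protein-coding symbols that match the rule were not analysed here.

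The knockout group was 3 Tmod3-/- embryos, recorded with a small liver and anemia, and the control group was 3 Tmod3+/+ embryos recorded as normal. All 6 were C57BL/6J embryos at E14.5, described by the submitters as independent, and total RNA of each liver went onto 1 Affymetrix MoGene 1.0 ST array. Tmod3 encodes tropomodulin 3, which caps the pointed ends of actin filaments, and the comparison asks which transcripts differ when it is missing. Which part of the gene is disrupted, and whether the embryos were littermates, is not stated in the labels.

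Oxidative phosphorylation runs in the inner mitochondrial membrane. Complexes I and II pass electrons to ubiquinone, complex III passes them to cytochrome c, complex IV hands them to oxygen, and ATP synthase uses the resulting proton gradient. Most subunits are encoded in the nucleus and a few in mitochondrial DNA. Fetal liver at this age is a site of red cell formation, where maturing erythroblasts need mitochondria for heme synthesis and later clear them, and it also holds hepatoblasts, which are rich in mitochondria.

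All values are levels or differences on the log2 scale of the deposited table, and a difference is always knockout minus wild type. The median over each array lay between 1.36 and 1.43, so most genes lay near the low end of the scale. Tmod3 read 1.32, 2.36 and 1.30 in knockout replicates 1 to 3 and 4.49, 4.78 and 4.90 in wild type replicates 1 to 3 (difference -3.06, limma adjusted p = 0.0225), so each array matched its genotype label. The difference kept its sign and size without any 1 array (-3.41 to -2.88), but its adjusted p was above 0.05 with any array missing except knockout replicate 2 and wild type replicate 1, and at most 0.255. Wild type replicate 1 stood apart from the other wild type arrays: it was the lowest of the 3 for 77.2% of the 2545 well expressed genes (mean of 3 or more), and for 61 of the 89 respiratory genes. Well expressed genes as a whole had a negative difference. The median over those 2545 genes was -0.25 (-0.37 without wild type replicate 1), and 80.6% of them lay below 0, while the median over all genes was 0.01, with 48.4% below 0. Liver markers were abundant: Alb and Afp averaged 9.74 and 10.6 over the 6 arrays, and the erythroblast gene Tfrc 8.35. In such bulk samples, fewer cells of a type and less RNA per cell cannot be told apart.

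The sequence just before the transcription start is shown for the genes of complex II and of the peripheral stalk of ATP synthase, because these were the small groups in which all measured genes had a difference of about -0.3 or lower. RefSeq promoters of the mouse assembly GRCm38.p6 were found for 73 of the 89 genes, and 5 of these had more than 1 start. Each line holds the 120 bases before the start, 5′ to 3′. Capitals mark matches, on either strand, to GCATGCG (part of the site of NRF1, a regulator of nuclear genes for mitochondria), CCGGAAG (a site of ETS factors such as GABP), AAGATGG (a site of YY1) or the cores ACGTG and GCGTG of the hypoxia response element. No marked matches overlap one another.
Sdha (chr13:74350241-74350360, minus strand): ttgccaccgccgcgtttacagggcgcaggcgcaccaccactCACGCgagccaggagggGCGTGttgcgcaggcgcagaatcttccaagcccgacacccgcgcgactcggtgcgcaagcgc
Sdhb (chr4:140961151-140961270, plus strand): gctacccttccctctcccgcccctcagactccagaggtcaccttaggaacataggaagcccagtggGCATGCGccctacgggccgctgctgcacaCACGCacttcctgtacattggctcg
Sdhd (chr9:50603850-50603969, minus strand): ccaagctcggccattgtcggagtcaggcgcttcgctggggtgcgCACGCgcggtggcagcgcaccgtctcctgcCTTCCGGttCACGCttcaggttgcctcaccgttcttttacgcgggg
Atp5pb (chr3:105959264-105959383, minus strand): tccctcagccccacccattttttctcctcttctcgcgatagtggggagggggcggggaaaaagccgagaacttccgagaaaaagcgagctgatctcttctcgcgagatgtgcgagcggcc
Atp5h (chr11:115419920-115420039, minus strand): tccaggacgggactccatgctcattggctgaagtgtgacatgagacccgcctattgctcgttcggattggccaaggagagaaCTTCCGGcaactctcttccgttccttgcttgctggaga
Atp5j (chr16:84834977-84835096, minus strand): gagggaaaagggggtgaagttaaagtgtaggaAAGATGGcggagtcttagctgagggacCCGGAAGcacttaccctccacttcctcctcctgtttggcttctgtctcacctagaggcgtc
Atp5o (chr16:91931631-91931750, minus strand): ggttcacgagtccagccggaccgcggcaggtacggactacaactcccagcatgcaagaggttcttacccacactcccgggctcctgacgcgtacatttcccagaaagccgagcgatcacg

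In these stretches Sdhb held the NRF1 letters 54 bases before the start. The ETS letters lay in Sdhd, Atp5h and Atp5j, and the YY1 letters in Atp5j. Atp5pb and Atp5o held none of the 5 words in this stretch. Atp5j has a second listed start, whose 120 bases held none either, and Sdhc was not in the table.

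Over the whole window of 250 bases before to 50 after the start, GCATGCG was found in 16.7% of the 78 promoters of the respiratory genes. It was in 3.58% of all 32851 promoters of the table and in 8.23% of the promoters of well expressed genes. CCGGAAG was found in 23.1%, against 8.86% of all promoters and 22.2% of those of well expressed genes. AAGATGG was found in 12.8%, against 6.34% and 8.35%. The hypoxia core GCGTG was found in 55.1%, against 32.4% and 55.2%, and ACGTG in 24.4%, against 19.6% and 28.7%. The median difference was -0.34 over the 18 respiratory genes with the ETS letters and -0.19 over the 55 without. Among well expressed genes with a promoter in the table the same split gave -0.28 and -0.24. For the NRF1 letters the medians of respiratory genes with and without a match were -0.18 over 13 genes and -0.20 over 60, for the YY1 letters -0.19 and -0.20, for GCGTG -0.19 and -0.21, and for ACGTG -0.11 over 18 and -0.23 over 55. These matches describe letters in the window and no more.

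No respiratory gene passed the threshold. With limma, 0 of 89 had an adjusted p under 0.05, where 0.015% of all genes (3 of 19938) were called. The smallest adjusted p in the set was 0.317. At an unadjusted p under 0.05, 16 of 89 had a negative difference and 0 a positive one, which is 18% against 6.44% of all genes on the lower side and 0% against 2.59% (2.28% of well expressed genes) on the higher side. Among well expressed genes the lower share was 20% for the 60 respiratory genes and 26.6% for all 2545. For the well expressed genes the count is therefore not above the background. Of the 29 respiratory genes with a mean under 3, 4 (13.8%) were lower, where 3.48% of all such genes were. The median wild type level was 2.09 for these 29 and 1.34 for all such genes, so the shares are not matched for level. The count of 16 became 6 without knockout replicate 3, 27 without wild type replicate 1, 7 without wild type replicate 2 and 8 without wild type replicate 3. It was 6 after the arrays were quantile normalized once more.

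The median difference over the 89 genes was -0.20, with a range from -0.62 (Ndufaf1) to 0.57 (Cox7a2l), and 72 of the 89 were negative. For the 60 brighter genes the median was -0.25, the same to 2 decimals as that of all 2545 bright genes. Over the 29 dimmer ones it was -0.08, where all 17393 dimmer genes had 0.02. These sets also differ in level, with median wild type levels of 2.09 and 1.34. The 3 knockout arrays lay below the 3 wild type arrays without overlap for 13 genes and above them for 2 (Cox7a1 and Cox8b). These are 14.6% and 2.25%, where all genes gave 7.1% and 6.14%, and genes with a mean of at least 3 gave 21.3% and 2.2%. Without knockout replicate 3 or wild type replicate 3 the median over the set was -0.12 and -0.10, and without wild type replicate 1 it was -0.30. After renewed quantile normalization the median was -0.08, 55 of the 89 were negative, and 4 lay below without overlap (4.49%, against 7.54% of all genes and 12.3% of well expressed ones).

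**Figure D1:**
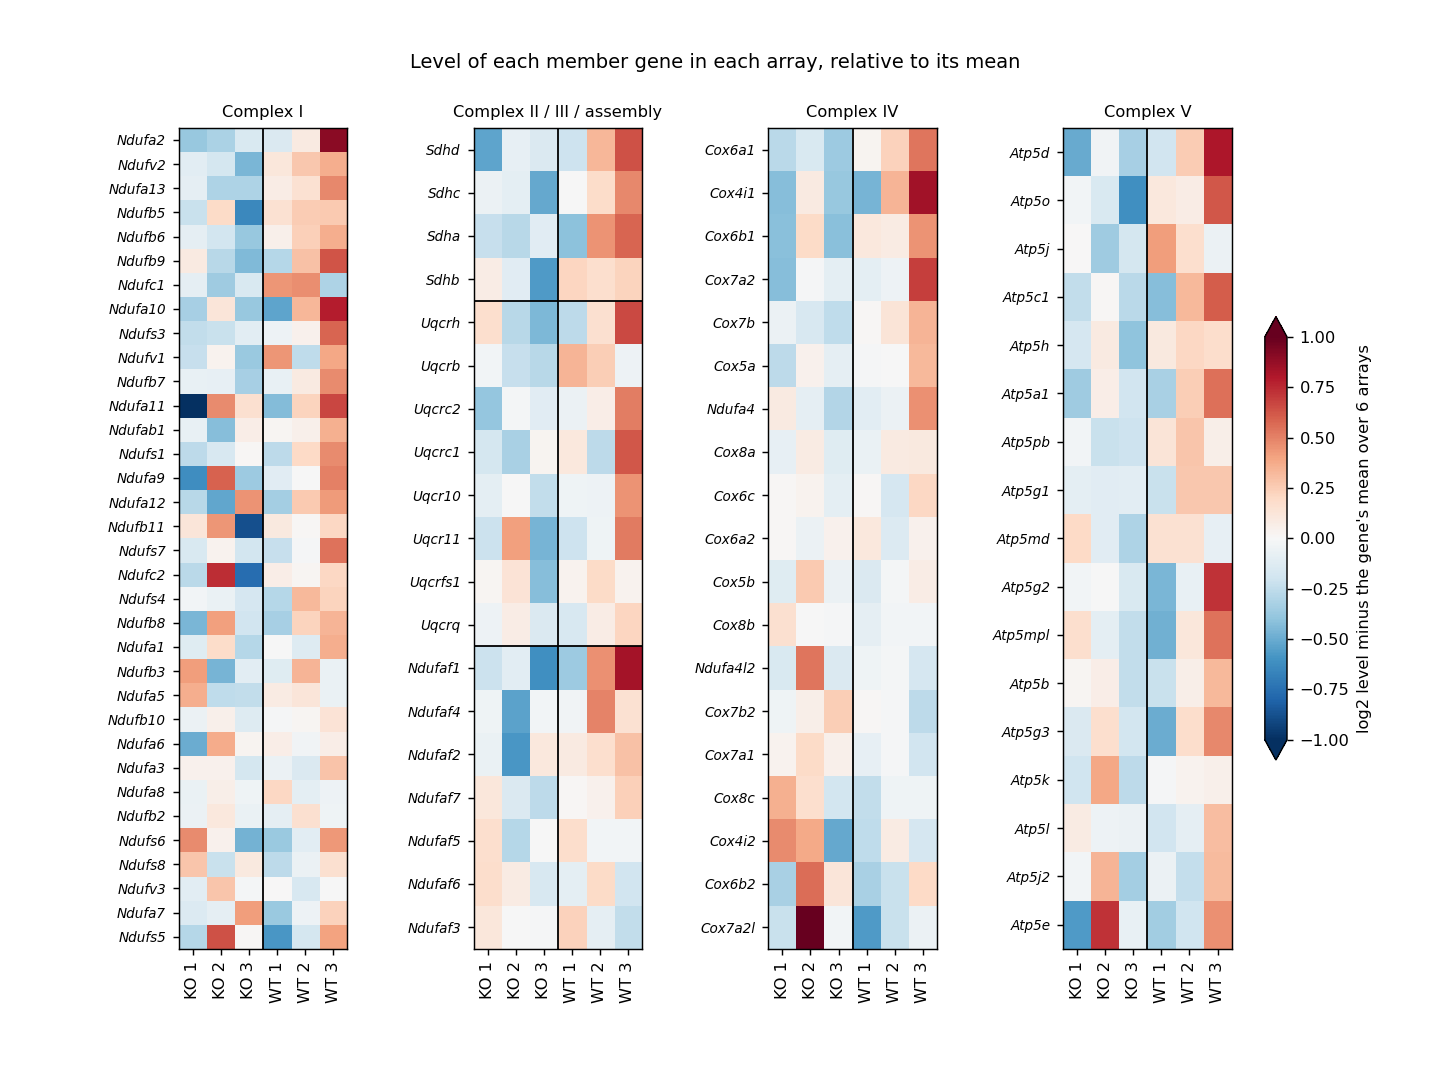
Level of each of the 89 genes in each array, as the log2 level minus that gene's mean over the 6 arrays (colour, limits at -1 and 1), with arrays in columns and genes in rows ordered by their knockout minus wild type difference within complexes. Wild type replicate 3 is the reddest column, wild type replicate 1 resembles the knockout columns for many genes, and the 4 Sdh genes are blue or near white in the knockout arrays apart from a faint red for Sdhb in replicate 1.

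**Figure D2:**
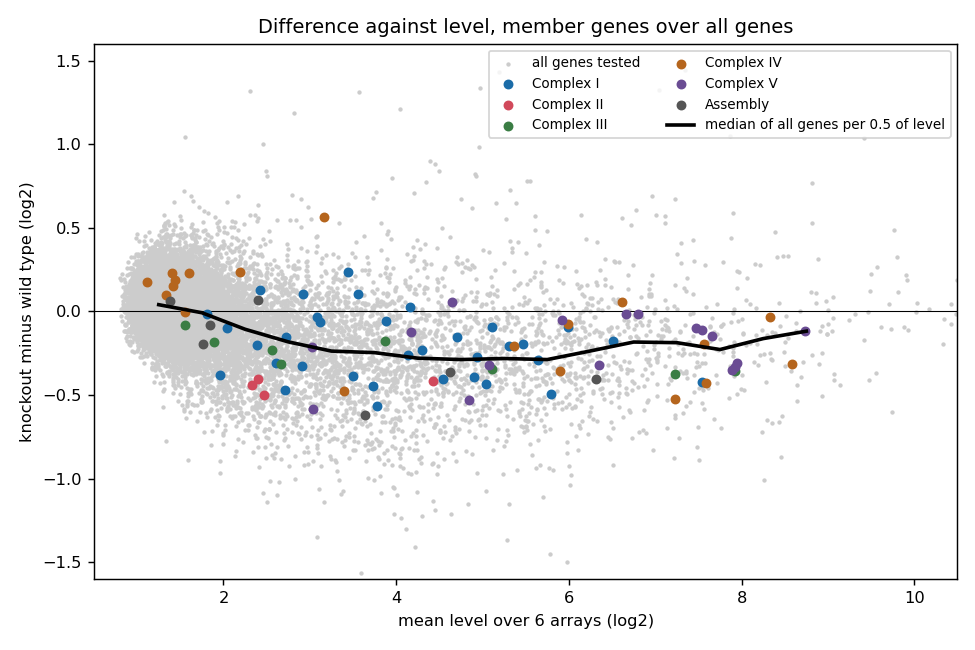
Knockout minus wild type difference (log2) against mean level over 6 arrays (log2) for all 19938 genes (grey) and the 89 respiratory genes (coloured by complex); the black line is the median of all genes per step of level. The respiratory genes follow the line, which lies below 0 for genes above a level of about 2; the vertical axis is cut, so that some grey points lie outside it.

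The mean level of the set was 4.28, 4.41 and 4.19 in knockout replicates 1 to 3 and 4.29, 4.47 and 4.68 in wild type replicates 1 to 3. Knockout replicate 2 lay above wild type replicate 1, so the groups overlapped. The mean over all genes with a level of at least 3 ran in a like order, with 4.73, 4.78 and 4.67 in knockout and 4.72, 5.09 and 5.10 in wild type arrays. Wild type replicate 3 was the highest wild type array for 63 of the 89 genes, and for 46 of the 60 well expressed ones, or 76.7%, against 49.2% of all well expressed genes.

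Complex I, the NADH dehydrogenase and largest complex of the chain, had a median difference of -0.20 over 34 genes, of which 29 were negative. At an unadjusted p under 0.05, 5 of them were lower and 0 higher, and 0 passed over all genes (limma). These 5 are 14.7%, against 6.44% of all genes and 26.6% of well expressed ones, and 2 were lower after renewed quantile normalization. The 6 measured core subunits, most of which carry the flavin or iron-sulfur centres, had a median of -0.33 (-0.12 after renewed quantile normalization), and the 28 accessory subunits had -0.19. Leaving out wild type replicate 1 gave a complex I median of -0.32, leaving out wild type replicate 3 gave -0.10, and it was -0.03 after renewed quantile normalization.

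Ndufv2, a core subunit with an iron-sulfur centre, read 5.69, 5.62 and 5.34 in the knockout arrays and 5.91, 6.06 and 6.16 in the wild type arrays. The groups did not overlap, and the difference was -0.50 ± 0.13 (SE, limma adjusted p = 0.317). Ndufa13, also known as Grim-19, read 2.62, 2.40 and 2.41 against 2.78, 2.86 and 3.20, a difference of -0.47 ± 0.14 (SE, limma adjusted p = 0.368), again without overlap. Ndufb6, an accessory subunit of the membrane arm, read 4.96, 4.86 and 4.67 against 5.09, 5.28 and 5.41. Its groups were also apart, with -0.43 ± 0.13 (SE, limma adjusted p = 0.368). After renewed quantile normalization Ndufv2 was the only gene of complex I whose groups stayed apart.

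Ndufa2, an accessory subunit, read 3.41, 3.46 and 3.63 against 3.64, 3.87 and 4.69, so the groups just missed each other and wild type replicate 3 stood high. Its difference was -0.57 ± 0.24 (SE, limma adjusted p = 0.550). Ndufb5, of the membrane arm, read 3.51, 3.92 and 3.09 against 3.88, 3.99 and 3.99, and knockout replicate 2 lay above wild type replicate 1. On the positive side, the accessory subunit genes Ndufs5, Ndufa7 and Ndufv3 had differences of 0.24, 0.13 and 0.11, and the core gene Ndufs8 had 0.10, with limma adjusted p from 0.871 to 0.903. Each of the 4 turned slightly negative without 1 array, which was knockout replicate 2 for Ndufs5 (-0.02) and Ndufv3 (-0.0070), knockout replicate 3 for Ndufa7 (-0.05) and knockout replicate 1 for Ndufs8 (-0.01). The 7 assembly factors of complex I had a median of -0.20. Ndufaf1 read 3.43, 3.54 and 3.03 against 3.28, 4.10 and 4.48, where wild type replicate 1 lay among the knockout arrays (difference -0.62, limma adjusted p = 0.577).

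Complex II, succinate dehydrogenase, is shared by the respiratory chain and the citric acid cycle and has 4 subunits, all encoded in the nucleus. Its 4 genes had differences from -0.50 to -0.40 and a median of -0.43, which was the lowest median of the 5 complexes. At an unadjusted p under 0.05, 3 of 4 were lower, and 0 passed over all genes (limma adjusted p 0.499 to 0.694). With 4 genes, and the share of 26.6% among bright genes, this is a count to read with care. Sdhb, Sdhc and Sdhd, the 3 lower genes, had mean levels of 2.40, 2.33 and 2.46. The share was 3.48% over all genes with a mean under 3. Those genes were mostly dimmer, with a median level of 1.37 in knockout and 1.34 in wild type arrays. A share for genes at the level of the Sdh genes was not taken.

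Sdha, the catalytic flavoprotein, read 4.19, 4.15 and 4.31 in the knockout arrays and 4.01, 4.88 and 5.01 in the wild type arrays. Wild type replicate 1 was the lowest of the 6, so the groups overlapped. Sdhb, the iron-sulfur subunit, read 2.48, 2.29 and 1.84 against 2.62, 2.57 and 2.62, with no overlap and an even wild type group. Sdhc and Sdhd anchor the complex in the membrane. Sdhc read 2.27, 2.23 and 1.82 against 2.33, 2.52 and 2.81, again with no overlap. Sdhd read 1.94, 2.38 and 2.32 against 2.26, 2.79 and 3.10, where wild type replicate 1 fell within the knockout range.

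The mean level of the 4 Sdh genes was 2.72, 2.76 and 2.57 in the knockout arrays and 2.80, 3.19 and 3.39 in the wild type arrays, and the groups did not overlap. After renewed quantile normalization it was 2.81, 2.79 and 2.64 against 2.93, 3.04 and 3.17, still apart. All genes with a level of at least 3 then had means of 4.84, 4.81 and 4.81 against 4.86, 4.90 and 4.87, also apart. The median difference of the 4 Sdh genes was then -0.32, while that of all genes with a level of at least 3 was -0.06. Sdhb, Sdhc and Sdhd lay under that level, with means of 2.40, 2.33 and 2.46 on the deposited scale. When 1 array was left out at a time, the complex II median ran from -0.64 (without wild type replicate 1) to -0.31 (without wild type replicate 3). After that normalization 0 of the 4 had an unadjusted p under 0.05, and Sdhc alone kept its groups apart.

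Complex III, the cytochrome bc1 complex, had 8 measured genes, all with a negative difference, from -0.37 to -0.08, and a median of -0.27. At an unadjusted p under 0.05, 1 was lower, and the groups overlapped for all 8. That is 12.5%, against 6.44% of all genes and 26.6% of well expressed ones. Uqcrb, which takes part in ubiquinone binding, read 7.90, 7.69 and 7.64 against 8.26, 8.17 and 7.87, so that knockout replicate 1 and wild type replicate 3 nearly coincided (difference -0.36 ± 0.13, SE, limma adjusted p = 0.484). The other 2 probe sets of Uqcrb gave -0.35 each. The core protein genes Uqcrc1 and Uqcrc2 had -0.31 and -0.35. Uqcrc2 read 4.72, 5.09 and 5.0 against 5.05, 5.18 and 5.62, and Uqcrc1 2.5, 2.35 and 2.69 against 2.78, 2.41 and 3.29. In both, wild type replicate 3 was the highest array.

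The hinge protein gene Uqcrh read 7.40, 6.96 and 6.78 against 6.97, 7.39 and 7.89, and the small subunit gene Uqcr10 2.46, 2.56 and 2.32 against 2.52, 2.51 and 3.01. For both, only wild type replicate 3 lay above all 3 knockout arrays. The Rieske iron-sulfur protein gene Uqcrfs1 had -0.18, and 0.05 after renewed quantile normalization. The median over the 8 genes was -0.11 without wild type replicate 3 and -0.12 after renewed quantile normalization.

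Complex IV, cytochrome c oxidase, had 10 negative and 9 positive differences among 19 genes, with a median of -0.01. The split followed the kind of isoform. The 10 common forms of subunits (Cox4i1, Cox5a, Cox5b, Cox6a1, Cox6b1, Cox6c, Cox7a2, Cox7b, Cox8a and Ndufa4) had a median of -0.26, and 9 were negative. The 8 forms known for restricted expression or as paralogues (Cox4i2, Cox6a2, Cox6b2, Cox7a1, Cox7b2, Cox8b, Cox8c and Ndufa4l2) had a median of 0.18, and 7 were positive. The restricted forms were dim, with 4 of the 8 averaging below the highest array median. Without wild type replicate 3 the median of the common forms was -0.10, and without knockout replicate 2 that of the restricted forms was 0.11. All genes with a mean level under 3 had a median of 0.02. The grouping by isoform was made with the values known and was not tested.

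The 2 isoforms of subunit 4, which in mammals differ in how they set oxidase activity at low oxygen, had differences of opposite sign, neither of which passed the test. Cox4i1, the common form, read 2.97, 3.48 and 3.01 in the knockout arrays and 2.92, 3.73 and 4.23 in the wild type arrays. Wild type replicate 1 was the lowest of all 6, so the groups overlapped. The difference was -0.47 with a 95% interval from -1.18 to 0.23 (limma adjusted p = 0.730). It was -0.83 without wild type replicate 1 and -0.17 without wild type replicate 3. Cox4i2, whose expression is known to be raised by low oxygen in some tissues, read 2.08, 1.98 and 1.09 against 1.35, 1.68 and 1.43. Knockout replicates 1 and 2 were the highest of the 6 arrays and knockout replicate 3 the lowest. The difference was 0.23 with a 95% interval from -0.34 to 0.80 (limma adjusted p = 0.850). Without knockout replicate 3 it was 0.54, and without knockout replicate 1 it was 0.049 (limma adjusted p = 0.519 and 0.984).

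Cox4i2 minus Cox4i1 within an array was -0.89, -1.50 and -1.92 in the knockout arrays and -1.58, -2.05 and -2.80 in the wild type arrays. The mean was -1.44 ± 0.52 against -2.14 ± 0.62 (SD, n = 3 each), a change of 0.70 in the balance of the isoforms (two-sided exact permutation p = 0.2, or 0.25 after Benjamini-Hochberg adjustment over 5 pairs, where 3 against 3 allows no p below 0.1). The groups overlapped, and the change was 0.48 after renewed quantile normalization and 0.37 without wild type replicate 3. The same restricted minus common measure differed, knockout minus wild type, by 0.52 for Cox6a2 and Cox6a1, 0.66 for Cox6b2 and Cox6b1 and 0.55 for Cox7a1 and Cox7a2, without overlap (exact permutation p = 0.1 each, adjusted 0.167). For Ndufa4l2 and Ndufa4 it was 0.35, with overlap (exact permutation p = 0.4). After renewed quantile normalization the groups overlapped for Cox7a1 minus Cox7a2 and stayed apart for the Cox6a and Cox6b pairs. Cox7a1 then had a difference of 0.15 and Cox7a2 of -0.16. Each pair sets a restricted form with a mean under 3 against a brighter common form. On the deposited scale the median was 0.02 over all genes under 3 and -0.25 over the brighter ones. The part of level in these values was not tested.

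Cox6a1, the common form of subunit 6a, read 6.96, 7.08 and 6.87 against 7.26, 7.46 and 7.77, with no overlap and a difference of -0.53 ± 0.14 (SE, limma adjusted p = 0.333). After renewed quantile normalization it was -0.43, still without overlap (limma adjusted p = 0.395). Its muscle form Cox6a2 read 1.56, 1.5 and 1.6 against 1.66, 1.41 and 1.6, a difference of -0.0057, with the sign turning when some arrays were left out. Cox7b read 8.53, 8.42 and 8.33 against 8.59, 8.71 and 8.92, also without overlap (difference -0.31 ± 0.12, SE, limma adjusted p = 0.499), and its second probe set gave -0.35. The testis-linked paralogue Cox7b2 read 1.07, 1.17 and 1.37 against 1.12, 1.11 and 0.86, all below the lowest array median except knockout replicate 3.

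Cox6b1 read 7.17, 7.78 and 7.17 against 7.69, 7.67 and 8.03, where knockout replicate 2 fell within the wild type range (difference -0.43, limma adjusted p = 0.557). Its testis form Cox6b2 read 1.87, 2.75 and 2.32 against 1.87, 1.97 and 2.40, and knockout replicate 2 was the highest. Cox7a2, the common form of subunit 7a, read 5.48, 5.89 and 5.80 against 5.81, 5.85 and 6.59 (difference -0.36, limma adjusted p = 0.708). The heart and muscle form Cox7a1 read 1.47, 1.63 and 1.49 against 1.35, 1.42 and 1.24, which put all 3 knockout arrays above all 3 wild type arrays by a small margin at a low level (difference 0.19, limma adjusted p = 0.670).

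Cox8a read 5.90, 6.07 and 5.87 against 5.92, 6.07 and 6.09, a difference of -0.08 that turned to 0.12 after renewed quantile normalization. Cox8b and Cox8c, its restricted forms, read 1.5, 1.33 and 1.32 against 1.24, 1.31 and 1.31, and 1.76, 1.57 and 1.22 against 1.15, 1.36 and 1.36. Ndufa4 read 7.66, 7.47 and 7.28 against 7.46, 7.51 and 8.02. Ndufa4l2, known as a gene induced by low oxygen, read 1.26, 1.95 and 1.27 against 1.37, 1.4 and 1.25. Knockout replicate 2 alone stood out, and without it the difference of Ndufa4l2 went from 0.15 to -0.08.

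Cox7a2l, counted neither as a common nor as a restricted form, had the highest difference of the set. It read 2.94, 4.27 and 3.15 in the knockout arrays and 2.60, 2.94 and 3.11 in the wild type arrays, so the groups overlapped and knockout replicate 2 was far above the rest. The difference was 0.57 ± 0.32 (SE, limma adjusted p = 0.683), and its second probe set gave 0.45. Without knockout replicate 2 the difference was 0.16. After renewed quantile normalization the groups no longer overlapped (3.08, 4.32 and 3.29 against 2.74, 2.78 and 2.88), and the difference was 0.76 (limma adjusted p = 0.537).

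**Figure D3:**
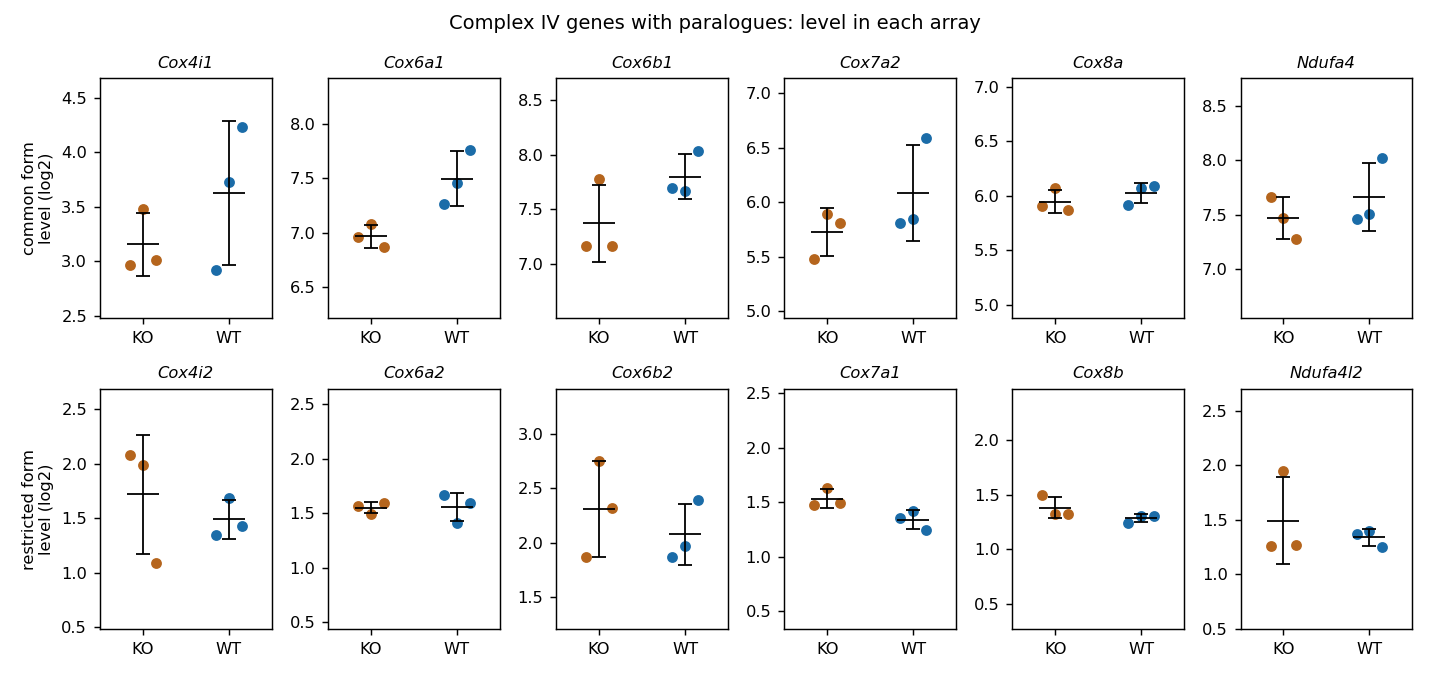
Level (log2) of 6 common forms (top row) and 6 restricted forms or paralogues (bottom row) of complex IV genes in each knockout (KO) and wild type (WT) array; points are arrays, black bars the mean and SD, and every panel spans the same range of log2 units. Cox6a1 separates the groups, while the restricted forms lie low, between 1.09 and 2.75.

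Complex V, ATP synthase, had a median of -0.15 over 17 genes, with 16 negative, and 5 were lower and 0 higher at an unadjusted p under 0.05. These 5 are 29.4%, near the 26.6% of all well expressed genes, and after renewed quantile normalization 12 were negative and 2 lower. Of the 5 lower on the deposited scale, 4 were the measured genes of the peripheral stalk, which holds the catalytic head still against the turning rotor. The stalk genes Atp5pb, Atp5h, Atp5j and Atp5o had differences from -0.53 to -0.31 and a median of -0.34. Median differences of the other parts were -0.32 for the 5 genes of the catalytic head and central stalk, -0.12 for the 3 genes of the c-ring and -0.05 for the 5 accessory genes of the membrane part. After renewed quantile normalization these were -0.09, -0.02 and 0.09. None passed over all genes (limma adjusted p 0.455 to 0.991). The genes were put into these parts with the values known, so the counts are a description.

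Atp5pb, subunit b of the stalk, read 7.92, 7.73 and 7.74 in the knockout arrays and 8.08, 8.23 and 8.01 in the wild type arrays. The groups did not overlap, and the difference was -0.31 ± 0.11 (SE, limma adjusted p = 0.455); its second probe set gave -0.17. Atp5o, the subunit that joins stalk and head, read 4.82, 4.69 and 4.23 against 4.95, 4.92 and 5.46, also apart (-0.53 ± 0.20, SE, limma adjusted p = 0.484). Atp5h, subunit d, read 6.17, 6.43 and 5.94 against 6.44, 6.55 and 6.52, with knockout replicate 2 just under wild type replicate 1. Its other probe sets gave -0.11 and -0.33. Atp5j, subunit F6, read 7.90, 7.53 and 7.71 against 8.31, 8.05 and 7.83, where knockout replicate 1 lay above wild type replicate 3.

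The mean over the 4 stalk genes was 6.70, 6.60 and 6.40 in the knockout arrays and 6.95, 6.94 and 6.96 in the wild type arrays. Here wild type replicate 1 was level with the other wild type arrays, and the groups did not overlap. The median difference stayed between -0.41 and -0.32 when any 1 array was left out. After renewed quantile normalization it was -0.29, and the means were 6.76, 6.60 and 6.50 against 7.06, 6.82 and 6.79. The mean over all bright genes was then also lower in the knockout arrays without overlap. Taken singly, the groups then overlapped for each of the 4 stalk genes. Of the 4, 1 had an unadjusted p under 0.05, where 13.2% of all bright genes then did on the lower side.

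Atp5d, the delta subunit of the central stalk, read 2.54, 3.01 and 2.71 against 2.85, 3.30 and 3.85, with knockout replicate 2 above wild type replicate 1 (difference -0.58 ± 0.24, SE, limma adjusted p = 0.534). The catalytic beta subunit gene Atp5b had -0.11, the alpha subunit gene Atp5a1 -0.32 and the rotor gene Atp5c1 -0.34. The c-ring genes Atp5g1, Atp5g2 and Atp5g3, which encode the same mature protein, had -0.21, -0.12 and -0.10. Among the accessory genes, Atp5l, covered by 6 probe sets, had -0.02 in the probe set used and -0.19 to -0.12 in the others. Atp5e was the 1 positive gene of complex V (0.06). With 1 array left out, the median of complex V was lowest without wild type replicate 1 (-0.35) and highest without knockout replicate 3 (-0.08). It was -0.26 when knockout replicate 2 was left out and -0.22 when knockout replicate 1 was.

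**Figure D4:**
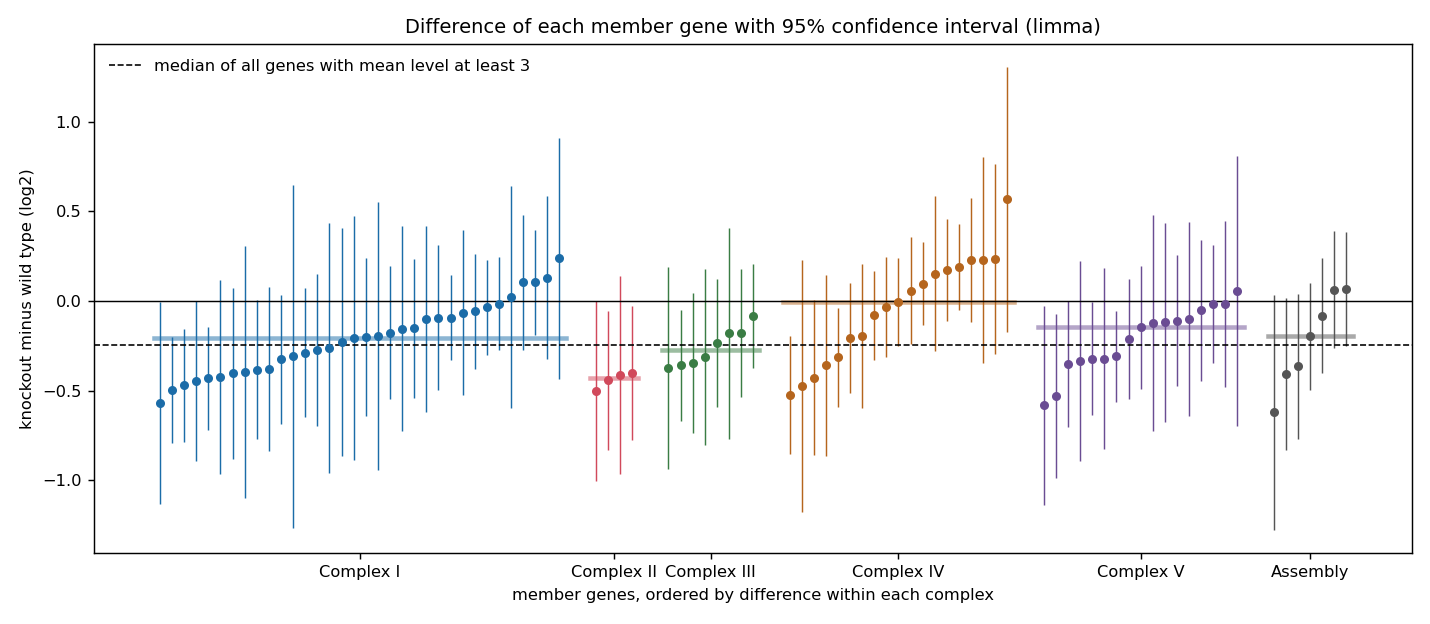
Knockout minus wild type difference (log2) of each of the 89 genes with its 95% confidence interval from limma, grouped by complex and ordered within it; thick lines are the medians of the complexes and the dashed line is the median of all well expressed genes (-0.25). Complexes II and III lie wholly below 0, complex IV runs from -0.53 to 0.57, and most intervals cross 0.

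**Figure D5:**
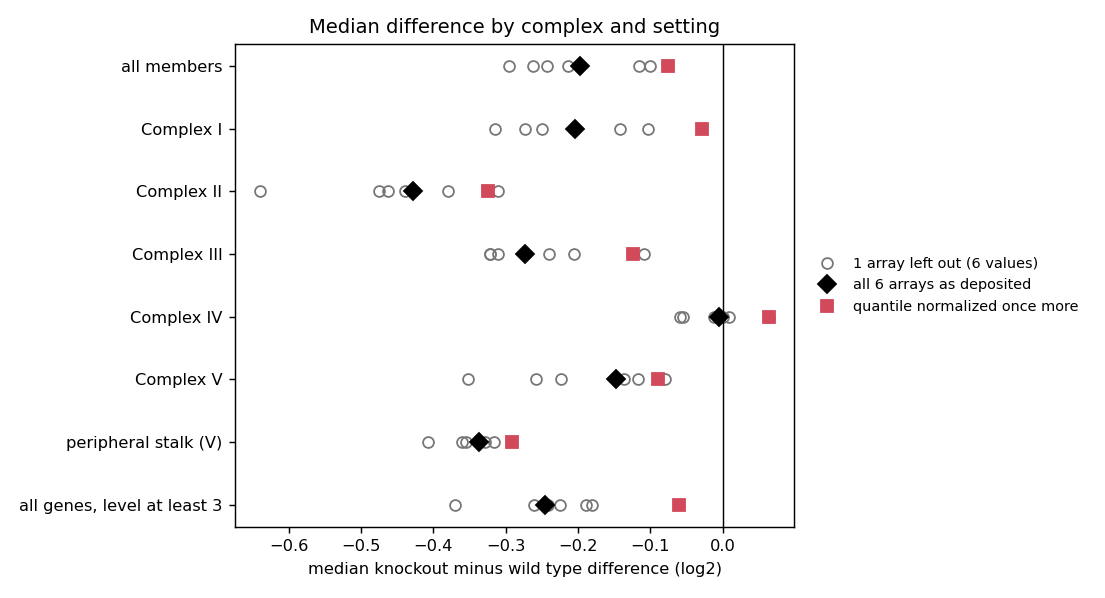
Median knockout minus wild type difference (log2) for all 89 genes, each complex, the peripheral stalk of complex V and all genes with a level of at least 3, with all arrays as deposited (diamonds), with 1 array left out (circles) and after renewed quantile normalization (squares). The squares lie nearer to 0 than the diamonds except in complex IV; complex II (-0.32) and the stalk (-0.29) stay farthest from 0.

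Several genes were covered by more than 1 probe set, which matters here because respiratory genes have many processed copies in the genome. Of the 17 such genes, 14 had probe sets that all gave the same sign. Those that disagreed were Cox6c (-0.03 and 0.10), Ndufa11 (-0.31 and 0.08) and Uqcr11 (-0.18 and 0.06). Ndufs3, a core gene of complex I, had -0.38 and -0.53. Whether a probe set also binds transcripts of a copy was not tested.

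Other genes of the pathway were taken from lists written with earlier results of these data known. None of them passed over all genes (limma, smallest adjusted p 0.202). Only 2 genes of mitochondrial DNA had a probe set of their own, and neither was lower. COX2, the catalytic subunit 2 of complex IV, read 11.3, 11.1 and 11.4 in the knockout arrays and 11.4, 11.2 and 10.7 in the wild type arrays (difference 0.19, limma adjusted p = 0.833). ND3 of complex I read 10.3, 9.56 and 10.3 against 10.4, 10.1 and 9.47 (difference 0.05, limma adjusted p = 0.975). In both genes wild type replicate 3, the highest wild type array for most nuclear genes of the set, was the lowest of the 6, and without it their median went from 0.12 to -0.12.

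Assembly factors of the complexes, 49 genes including the 7 Ndufaf genes, had a median of -0.08 (-0.02 without wild type replicate 3), with 9 lower and 1 higher at an unadjusted p under 0.05, or 18.4% and 2.04% against 6.44% and 2.59% of all genes. Well expressed genes gave 26.6% and 2.28%. The 4 assembly factors with the smallest p were the complex IV factors Coa6 (-0.49), Cox19 (-0.35) and Cox20 (-0.66) and the complex III factor Uqcc2 (-0.41). In each of them the groups did not overlap. Electron carriers and other entry points had a median of -0.06 over 23 genes (-0.13 and -0.01 without wild type replicates 1 and 3). By the same count 2 were lower, Coq10b (-0.52) and Cyc1, cytochrome c1 of complex III (-0.53). That is 8.7%, near the 6.44% of all genes and below the 26.6% of well expressed ones. Cytochrome c itself, Cycs, had -0.46 and Etfdh -0.57, both with overlap. The 10 carriers and porins had a median of -0.02 (-0.25 without wild type replicate 1), and 1 (10%) was lower, the ADP/ATP carrier Slc25a4 (-0.41). It read 6.25, 6.16 and 6.34 against 6.45, 6.72 and 6.80. Vdac3 had -0.44, Ucp3 0.17 and Slc25a5 -0.36.

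Regulators of mitochondrial gene expression and biogenesis had a median of -0.20 over 20 genes (-0.12 without knockout replicate 2), with 5 lower and 0 higher. In 6 of the 20 the knockout arrays lay below the wild type arrays, among them the mitochondrial transcription factor genes Tfb1m (-0.45) and Tfb2m (-0.31), Mterf3 (-0.57) and the GABP subunit gene Gabpb1 (-0.30). All genes gave 7.1% without overlap on the lower side and 6.44% lower at an unadjusted p under 0.05, and this list 30% and 25%. Well expressed genes gave 21.3% and 26.6%, and genes with a mean under 3 gave 5.02% and 3.48%. The mean level over this list was 2.35, 2.31 and 2.35 against 2.41, 2.57 and 2.63, without overlap. The 16 genes of pyruvate dehydrogenase and the citric acid cycle had a median of -0.22, with 15 negative and 4 lower at an unadjusted p under 0.05. That is 25% lower, against 6.44% of all genes and 26.6% of well expressed ones, of which 80.6% were negative. The 4 lower genes were fumarase, Fh1 (-0.77), Idh3g (-0.70), citrate synthase, Cs (-0.37), and Sucla2 (-0.38). The median of this list was -0.46 when wild type replicate 1 was left out, -0.10 when wild type replicate 3 was, and after renewed quantile normalization -0.04.

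Genes tied to low oxygen, most of them mitochondrial, went both ways. Bnip3, a mitophagy receptor, read 5.63, 6.76 and 5.31 against 4.37, 4.39 and 4.65 (difference 1.43, limma adjusted p = 0.261), and Higd1a, which binds the respiratory chain, 4.49, 5.36 and 4.90 against 4.22, 3.87 and 4.14 (difference 0.84, limma adjusted p = 0.309). In both the knockout arrays lay above the wild type arrays and knockout replicate 2 was the highest. Fundc1, another mitophagy receptor, read 2.63, 2.58 and 2.70 against 3.09, 3.15 and 3.42, the opposite order (difference -0.59, limma adjusted p = 0.202). Hilpda had 0.32. Cox4i2 and Ndufa4l2 belong to the same list of 9 genes, whose median was 0.15, and -0.08 without knockout replicate 2.

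Among markers of the cells of the liver, none passed over all genes (limma, smallest adjusted p 0.250). All 11 erythroblast markers had a negative difference (median -0.38), 5 of them (45.5%) lower at an unadjusted p under 0.05. Of all well expressed genes 80.6% were negative and 26.6% were lower by the same count. The mean level of these markers was 4.62 to 4.97 in knockout and 4.98 to 5.42 in wild type arrays. Of 10 hepatoblast and hepatocyte markers 9 were negative (median -0.62), 5 of them (50% of the list) lower. Their mean was 6.80, 6.88 and 5.91 in knockout replicates 1 to 3 against 6.89, 7.20 and 7.32 in wild type replicates 1 to 3. Knockout replicate 3 thus stood far below the rest, and knockout replicate 2 nearly met wild type replicate 1. Macrophage markers were negative in 10 of 11 (median -0.29), with a mean of 1.63 to 2.13 against 2.06 to 2.42. Of the macrophage markers, C1qa, C1qb, Vsig4 and Csf1r averaged below the highest array median. Endothelial markers had a median of 0.10 over 10 genes (mean 1.79 to 1.95 against 1.74 to 1.80), with Flt1, Kdr, Pecam1 and Tek below that median. Megakaryocyte markers had a median of -0.09 over 7 genes (mean 3.03 to 3.34 against 3.30 to 3.44). Granulocyte markers had -0.02 over 9 (2.34 to 2.87 against 2.44 to 2.72), and stellate and mesenchymal markers had 0.08 over 9 (2.07 to 2.33 against 1.97 to 2.25). The part of these markers in the differences of the respiratory genes was not tested.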

How the data were processed

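Total RNA of 6 fetal livers, 3 Tmod3 knockout and 3 wild type, was measured on 1 array each. The authors deposited log2 values for each probe set; the submitters' processing notes name RMA, and neither version nor log base is given in the sources used here. Base 2 was read from the range: raised from it, array maxima lie between 3457 and 6451. The arrays differ in the upper part of their distributions, so the normalization between arrays is not fully known. Arrays have no read depth, and their number limits the precision.

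Probe sets were named through the platform annotation: 21789 of 28853 had 1 gene symbol, 1621 several and 5443 none. Each gene took its probe set with the highest mean, and no filter was applied. The genotypes were contrasted by limma 3.58.1 (R 4.3.3; lmFit and eBayes, two-sided), with adjustment by Benjamini-Hochberg over 19938 genes at 0.05. A simulation of the genotype contrast (19938 genes, 5 runs) drew noise separately for each gene and array. It recovered 69.6% of changes of 1 and 96.8% of changes of 2 (log2), and 2.9% of its calls were false. Whether such rates hold for the deposited arrays was not tested. In these arrays, wild type replicate 1 was the lowest of its group for 77.2% of the well expressed genes. The calls over all genes ran from 0 to 95 when 1 array was left out.

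Genes given by array were Cox4i1 and Cox4i2, complex IV genes with paralogues, and up to 5 genes per complex by smallest p; other lists name up to 4 by smallest p. Further genes were chosen after their values were seen. The members and lists were chosen with earlier results of these data known. Alternatives were renewed quantile normalization, median centring, averaging the probe sets of a gene, 1 array fewer, a block for the replicate number, a filter at a mean of 2, an intensity trend with robust fitting, and array weights. Arrays correlated at 0.974 to 0.990 and none was a copy.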

Additional observations from a re-analysis of the deposited data

How the results depend on the processing

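No respiratory gene passed the threshold under any alternative run, and Cox4i1 and Cox4i2 kept their signs in all of them that gave a value (the filter at a mean of 2 leaves Cox4i2 out). Over all genes, 3 were called by limma; the count was 0 with the replicate block, 6 after renewed quantile normalization, 11 with array weights and 0 to 95 when 1 array was left out (95 without wild type replicate 1, 0 without wild type replicate 2). Same-numbered arrays did not deviate together (correlations of their deviations from the group means 0.11, 0.06 and -0.11 for numbers 1, 2 and 3), and not every array correlated best with its own number. Tmod3 had an adjusted p of 0.0897 with the block at the same difference of -3.06, and its difference ran from -3.41 to -2.88 with 1 array left out (adjusted p up to 0.255). The count of respiratory genes lower at an unadjusted p under 0.05, 16 as reported, was 6 after renewed quantile normalization, 6 with the filter on dim genes, 7 with an intensity trend and robust fitting, 26 with array weights and 6 to 27 with 1 array left out. With the block it was 15. The complex II median ran from -0.64 to -0.31 and the complex III median from -0.32 to -0.11 with 1 array left out, and complex III gave -0.12 after renewed quantile normalization. The median of genes with a level of at least 3 was then -0.060. The median of all genes was -0.031 after median centring and -0.19 with the filter, which leaves 4656 genes. Among genes named above, Cox6a2 ran from -0.077 to 0.047 with 1 array left out and had 0.050 with array weights, Cox8a had 0.12 after renewed quantile normalization, and Ndufa4l2 ran from -0.075 (without knockout replicate 2) to 0.27. The causes of these changes were not tested. Restricted forms of complex IV lie near the array medians, which limits what their values can show.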
